A study of Rattus norvegicus with 6 samples.

Results

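The genes described here are 38 interferon response genes of the rat, listed by name as genes that cells switch on when they sense interferon. They were followed in the renal cortex of rats given tricresyl phosphate, an organophosphate added to plastics and lubricants. A probe carrying the accession of the gene was found for 36 of the 38, through 63 probes, of which 61 passed the filter on dim signals, and all 36 genes were tested among 31637 genes. Ifi44l and Xaf1 had no probe named here. The 36 measured genes comprise 26 whose usual inducer is type I interferon and 10 that interferon gamma drives, and both lists are described apart.

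All animals were male Sprague-Dawley (Crl:CD(SD)) rats, bought at 5 weeks of age and kept on a basal diet with tap water. The control group consisted of 3 rats given corn oil for 4 weeks. The treated group consisted of 3 rats given 200 mg/kg/day tricresyl phosphate over the same 4 weeks. RNA from each renal cortex was hybridised to 1 one-colour Agilent array, so that each value below belongs to 1 animal.

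Type I interferons signal through a receptor whose kinases activate a complex with STAT2 and IRF9, which binds the interferon-stimulated response element of antiviral genes. Interferon gamma uses its own receptor and acts through gamma-activated sites, and it drives antigen presentation, guanylate-binding proteins and chemokines that attract T cells. In kidney the response is known from viral infection and from lupus nephritis, and tubular, endothelial and resident immune cells can all mount it.

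The promoters of these genes were searched for the letters of elements that answer interferon, and 8 of them are printed here. Windows of 300 bases, from 250 bases before to 50 after the annotated start site, were available in the RefSeq promoter table of assembly GRCr8 for 31 of the 38 genes. Ifit1, Ifit2, Mx2, Isg15, Oas2, Usp18 and Dhx58 had none in it. Both strands were searched for the core of the response element, which is GAAA, any 2 bases and GAAA, and for TTCNNNGAA, the gamma-activated site. A longer form of the core, with C after the second GAAA, contains the core itself. In the sequences below the capitals mark the core, or in Irf1 the gamma-activated site, each sequence runs 5′ to 3′ on the strand of the gene and ends at the base before the start site, and a match on the other strand reads TTTC, any 2 bases and TTTC. Irf7, Ifit3, Oas1a, Oas1b, Bst2, Ifi27 and Gbp2 show the core, and Irf1 shows a gamma-activated site without the core. Irf7 lies at chr1:205800024-205800203 on the minus strand and Ifit3 at chr1:241527146-241527325 on the plus strand. Oas1a lies at chr12:41330286-41330465 on the plus strand and Oas1b at chr12:41395853-41396032 on the minus strand. Bst2 lies at chr16:18254968-18255147 on the minus strand and Ifi27 at chr6:128355132-128355311 on the plus strand. Gbp2 lies at chr2:234005547-234005726 and Irf1 at chr10:38417755-38417934, both on the plus strand.
Irf7: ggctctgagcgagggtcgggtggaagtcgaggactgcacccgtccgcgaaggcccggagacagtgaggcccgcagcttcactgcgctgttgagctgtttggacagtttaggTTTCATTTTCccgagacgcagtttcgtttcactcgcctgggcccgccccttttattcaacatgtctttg
Ifit3: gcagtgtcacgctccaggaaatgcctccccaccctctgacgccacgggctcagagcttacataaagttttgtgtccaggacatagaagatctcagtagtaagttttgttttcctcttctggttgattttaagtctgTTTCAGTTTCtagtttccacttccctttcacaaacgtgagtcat
Oas1a: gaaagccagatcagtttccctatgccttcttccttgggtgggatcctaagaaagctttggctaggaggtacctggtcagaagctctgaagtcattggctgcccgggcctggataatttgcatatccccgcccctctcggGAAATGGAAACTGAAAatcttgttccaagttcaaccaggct
Oas1b: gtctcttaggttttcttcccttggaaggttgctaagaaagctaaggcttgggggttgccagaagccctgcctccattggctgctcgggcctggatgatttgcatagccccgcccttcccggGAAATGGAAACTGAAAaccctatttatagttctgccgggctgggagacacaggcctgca
Bst2: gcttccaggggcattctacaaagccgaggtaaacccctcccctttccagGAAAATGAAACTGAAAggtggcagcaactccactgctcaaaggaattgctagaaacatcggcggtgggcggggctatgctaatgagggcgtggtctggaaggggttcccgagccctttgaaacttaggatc
Ifi27: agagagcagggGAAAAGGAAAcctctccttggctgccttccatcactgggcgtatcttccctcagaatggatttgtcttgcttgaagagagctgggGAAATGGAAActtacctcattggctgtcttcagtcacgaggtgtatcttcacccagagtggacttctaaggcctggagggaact
Gbp2: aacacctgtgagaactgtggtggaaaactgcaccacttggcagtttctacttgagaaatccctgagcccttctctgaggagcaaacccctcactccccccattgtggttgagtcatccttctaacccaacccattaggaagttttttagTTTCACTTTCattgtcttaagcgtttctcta
Irf1: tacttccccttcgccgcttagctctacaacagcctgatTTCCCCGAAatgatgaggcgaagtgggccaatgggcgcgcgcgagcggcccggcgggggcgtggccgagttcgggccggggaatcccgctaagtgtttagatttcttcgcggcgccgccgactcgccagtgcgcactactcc
The core was present in 21 of the 31 windows (67.7%), against 3.92% of all 33469 windows of the same length. It was present in 15 of 21 windows of the type I driven genes and in 6 of 10 of the interferon gamma driven genes. The longer core was present in 48.4% of the member windows and in 0.881% of all windows. The gamma-activated site was present in 11 member windows (35.5%), against 8.87% of all windows. It was in 7 of 21 windows of the type I driven genes and 4 of 10 of the interferon gamma driven genes, so it did not set the lists apart. Of 27 core matches, 19 began within 100 bases before the start site, and 2 began at or after it. In Oas1a and Oas1b, neighbouring genes for oligoadenylate synthetases, 2 overlapping cores form a stretch of 16 bases, and 16 of the 16 letters are identical between the genes. The stretch begins at position -41 in Oas1a and at position -59 in Oas1b. In Bst2 a like pair begins at position -131, next to a gamma-activated site that begins at position -137 and shares its last bases with the pair, so that only these are in capitals, and in Ifi27 separate cores begin at positions -169 and -84. A match describes the letters only and is not evidence of binding, and a window without a match says nothing about a factor.

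**Figure D1:**
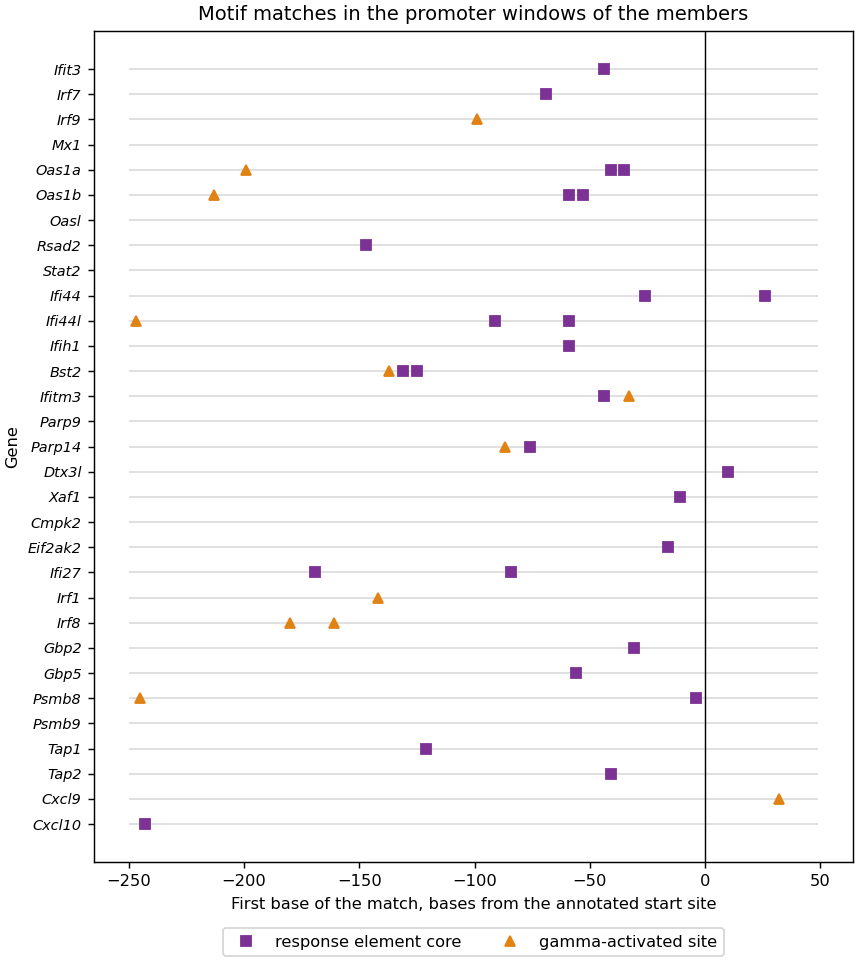
First base of each motif match in the 300-base promoter windows of 31 genes (vertical axis), in bases from the annotated start site (horizontal axis); squares are response element cores and triangles gamma-activated sites, on either strand. Of the 27 squares, 19 lie within 100 bases before the start site.

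Between 41503 and 43823 of 61537 non-control probes per array were well above background, and no spot was saturated. Levels below are processed signals on the log2 scale after the 75th percentile of each array was set to 0, and a level of 1 probe cannot be set against that of another. Markers of the labelled tissue were detected, since 10 of 10 proximal tubule markers and 5 of 5 podocyte markers passed the filter. So did 43099 of the 61537 probes, so passing does not single out a tissue. Slc34a1, the sodium-phosphate cotransporter of the proximal tubule, was at 8.21 to 8.61 on the log2 scale. Markers of hepatocytes passed as well, 7 of 8, and their values differed widely between animals. Corn oil animal 1 was alone on 1 slide, read on another scan day than the other 5 animals, so its slide and its own biology cannot be told apart. In whole cortex, fewer cells of a type and less RNA per cell cannot be told apart.

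None of the 36 interferon response genes differed between tricresyl phosphate and corn oil after adjustment. Most type I driven genes had lower means in the treated animals, with a median difference of -0.20. Differences are given as tricresyl phosphate minus corn oil on the log2 scale, with SE and limma p from 1 fit over all 31637 genes and Benjamini-Hochberg adjustment. With that fit 0 of 31637 genes were called (0%), and the adjusted p of the 36 genes ran from 0.811 to 0.996. At an unadjusted limma p under 0.05, 1 of the 36 genes was lower, Mx2, against 3.86% of all genes. The number higher was 0, against 1.63%. Without corn oil animal 3, 7 were lower, where 1312 of 31637 genes were, and 0 higher, where 769 were. Without corn oil animal 2, 0 were lower, where 1147 of 31637 genes were, and 1 higher, where 462 were. With any other single animal left out, 0 to 1 were lower and 0 higher. With all 6 animals, the means of 27 of the 36 genes were lower with treatment, where 59.2% of all genes were. The median difference was -0.16 against -0.04 over all genes. Of the 26 type I driven genes, 22 had a lower mean. Of the 10 interferon gamma driven genes, 5 had a lower mean, with a median of -0.03. The type I median stayed below 0 with any 1 animal left out, but its size depended on which. It was -0.06, with 17 of 26 lower, without corn oil animal 2, and it was -0.11 without tricresyl phosphate animal 2 and -0.32 without corn oil animal 3. Without corn oil animal 1 it was -0.16, and without tricresyl phosphate animals 1 and 3 in turn it was -0.14 and -0.24. With normexp background correction and quantile normalization it was -0.12. The groups did not overlap for 2 genes, Mx2 and Psmb9, both lower with treatment, against 7.94% of all genes, and for 0 genes in the higher direction, against 3.85%. Of 4 red blood cell markers tested, 3 were lower with treatment at an unadjusted limma p under 0.05. Hbb differed by -0.34, Alas2 by -0.34 and Epb42 by -0.31. The other, Slc4a1, which is also listed as a collecting duct marker, differed by 0.08 (interval -0.52 to 0.68). The part of these markers in the lower means was not tested.

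**Figure D2:**
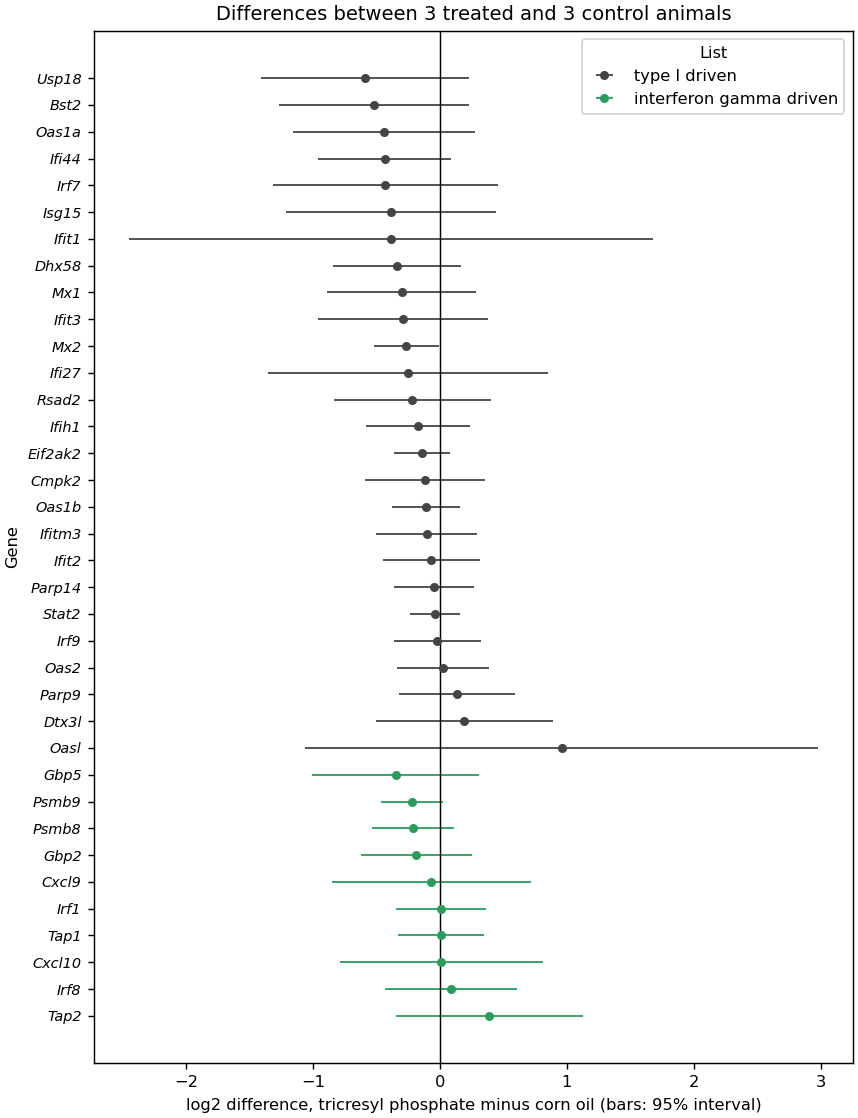
Difference of each of the 36 genes (vertical axis), tricresyl phosphate minus corn oil on the log2 scale (horizontal axis), with 3 animals a group; points are fitted differences and bars their 95% intervals from limma. All intervals but that of Mx2 include 0, and the intervals of Oasl and Ifit1 are the widest of the 36.

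The factors that carry the type I signal were measured first. IRF7, which amplifies the type I response, had Irf7 levels of 1.68, 2.65 and 1.38 in the corn oil animals and 1.47, 1.09 and 1.86 in the treated animals. Corn oil animal 2 was the highest of the 6, tricresyl phosphate animal 3 came next, and the groups overlapped. The means were 1.90 ± 0.66 (SD, n = 3) and 1.47 ± 0.38 (SD, n = 3), a difference of -0.43 ± 0.37 (SE), and this was -0.06 without corn oil animal 2. Irf9, the DNA-binding partner of the complex, differed by -0.02 with a 95% interval of -0.36 to 0.32. Stat2, its other partner, differed by -0.03 with an interval of -0.23 to 0.16, and its levels lay between 2.02 and 2.14 in all 6 animals. The sign of the Stat2 difference turned under quantile normalization, at 0.0052.

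Mx2 encodes a dynamin-like GTPase that the cell makes against viruses. Its levels were 6.53, 6.34 and 6.25 with corn oil and 6.10, 6.18 and 6.04 with tricresyl phosphate. Every treated animal was below every control animal, and corn oil animal 1 was the highest. The means were 6.37 ± 0.14 (SD, n = 3) and 6.11 ± 0.07 (SD, n = 3), and the difference was -0.26 ± 0.10 (SE), with a limma p of 0.044 before and 0.811 after adjustment. It was -0.19, with an unadjusted limma p of 0.12, without corn oil animal 1. The unadjusted limma p was below 0.05 without corn oil animal 3, at 0.031, and above it without any other single animal, at 0.060 to 0.12. The other kept probe of Mx2 did not share this pattern. It read -1.37 in corn oil animal 2 and -3.43 to -2.85 in the other 5 animals, and its difference was -0.50 ± 0.56 (SE). Mx1, the paralogue of Mx2, had its highest level in corn oil animal 2, at 2.65, and differed by -0.30 with an interval of -0.89 to 0.29. Whether probes of these related genes bind each other's transcripts was not tested.

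The oligoadenylate synthetases make the messenger that activates the ribonuclease RNase L. Oas1a levels, shown because its promoter is printed above and chosen after its values were seen, were 1.21, 1.81 and 0.78 with corn oil and 0.66, 0.60 and 1.20 with treatment. Corn oil animal 2 was again the highest, and the groups overlapped through corn oil animal 3 and tricresyl phosphate animal 3. The difference was -0.44 ± 0.29 (SE). Oas1b, whose core stretch has the same letters as that of Oas1a, did not follow it from animal to animal. Its levels were 6.08, 5.85 and 5.78 with corn oil and 5.88, 5.75 and 5.75 with treatment, highest in corn oil animal 1. The difference of Oas1b was -0.11 with an interval of -0.38 to 0.16, and it turned to 0.00057 under quantile normalization.

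Oasl, an oligoadenylate synthetase-like protein, had the widest range of the 36 genes. Its levels were -4.53, -4.28 and -4.52 with corn oil and -1.45, -4.67 and -4.32 with tricresyl phosphate. Tricresyl phosphate animal 1 alone was high, 9.32 times the lowest animal on the linear scale, and the other 5 animals lay together. The difference of 0.96 ± 0.83 (SE) became -0.05 without that animal. Oas2 differed by 0.02 with an interval of -0.34 to 0.39.

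The IFIT proteins bind viral RNA that lacks the host cap. The probe of Ifit1 was well above background in 1 of 3 corn oil animals and 2 of 3 treated animals, and the other 35 genes were well above background in all 6. Its levels were -5.76, -5.01 and -6.37 with corn oil and -5.18, -8.04 and -5.08 with treatment. Tricresyl phosphate animal 2 was far below the rest, and the difference of -0.39 ± 0.85 (SE) turned to 0.58 without it. Ifit3 differed by -0.29 with an interval of -0.96 to 0.38, and Ifit2 by -0.07 with an interval of -0.45 to 0.31. Both were highest in corn oil animal 2, though a second Ifit3 probe was highest in corn oil animal 1.

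ISG15 is a ubiquitin-like protein that cells attach to other proteins, and USP18 removes it and also blocks the type I receptor. Usp18 levels were -1.58, -0.94 and -2.19 with corn oil and -2.38, -2.30 and -1.79 with treatment. The highest animal was corn oil 2, corn oil 3 lay among the treated animals, and tricresyl phosphate 3 was the highest of the treated. The means were -1.57 ± 0.63 (SD, n = 3) and -2.16 ± 0.32 (SD, n = 3), and the difference, -0.59 ± 0.34 (SE), was the most negative of the 36. It was -0.28 without corn oil animal 2 and -0.90 without corn oil animal 3, where the unadjusted limma p was 0.022. Isg15 levels, chosen after they were seen, were 0.83, 1.47 and 0.27 with corn oil and 0.38, 0.15 and 0.89 with treatment. Corn oil animal 2 was again the highest, tricresyl phosphate animal 3 came next, and the groups overlapped. Isg15 differed by -0.39 ± 0.34 (SE). Parp9 and Dtx3l, partners in a complex of an ADP-ribosyltransferase-like protein and a ubiquitin ligase, differed by 0.13 (interval -0.33 to 0.59) and 0.19 (interval -0.51 to 0.89). Both were highest in tricresyl phosphate animal 3, though a second Dtx3l probe was highest in corn oil animal 2.

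The cytosolic sensors of viral RNA had lower means with treatment within wide intervals. Ifih1, which encodes MDA5, differed by -0.17 (interval -0.58 to 0.24), and Dhx58, which encodes its relative LGP2, by -0.34 (interval -0.84 to 0.16). Eif2ak2, which encodes the kinase PKR that stops translation on double-stranded RNA, differed by -0.14 (interval -0.36 to 0.08). All 3 were highest in corn oil animal 2 by the probe used. Another Dhx58 probe was highest in corn oil animal 1, at -3.51, and differed by -0.04 ± 0.13 (SE). The remaining Dhx58 probe was highest in corn oil animal 2 and differed by -0.57 ± 0.19 (SE). Its unadjusted limma p was 0.023, but the groups overlapped and this probe does not stand for the gene in the counts above.

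Bst2 encodes tetherin, which holds budding virus at the cell surface. Its levels were 1.69, 2.58 and 1.73 with corn oil and 1.13, 1.42 and 1.90 with treatment. Corn oil animal 2 stood above all others, and tricresyl phosphate animal 3 was above both remaining controls. The means were 2.00 ± 0.50 (SD, n = 3) and 1.48 ± 0.39 (SD, n = 3), and the difference, -0.52 ± 0.31 (SE), was -0.23 without corn oil animal 2. Ifi27, a small membrane protein gene widely used as an interferon marker, had levels of 5.07, 4.81 and 4.07 with corn oil and 3.91, 3.95 and 5.33 with treatment. Its highest animal was tricresyl phosphate 3, followed by corn oil 1 and corn oil 2, and its second probe was also highest in tricresyl phosphate 3. The difference of Ifi27 was -0.25 ± 0.45 (SE), and -0.72 without tricresyl phosphate animal 3.

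The remaining type I driven genes also had intervals that include 0. Ifitm3, which stops virus entry at endosomes, differed by -0.10 (interval -0.51 to 0.30), and Rsad2, which encodes viperin, by -0.22 (interval -0.84 to 0.40). Cmpk2, the nucleotide kinase gene next to Rsad2, differed by -0.12 (interval -0.59 to 0.35). Ifi44 differed by -0.44 (interval -0.96 to 0.09) and Parp14, an ADP-ribosyltransferase gene, by -0.04 (interval -0.36 to 0.27). All 5 were highest in corn oil animal 2 by the probe used. Another Parp14 probe was highest in tricresyl phosphate animal 3, with a difference of 0.26 ± 0.23 (SE). The remaining Parp14 probes were highest in corn oil animal 2.

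**Figure D3:**
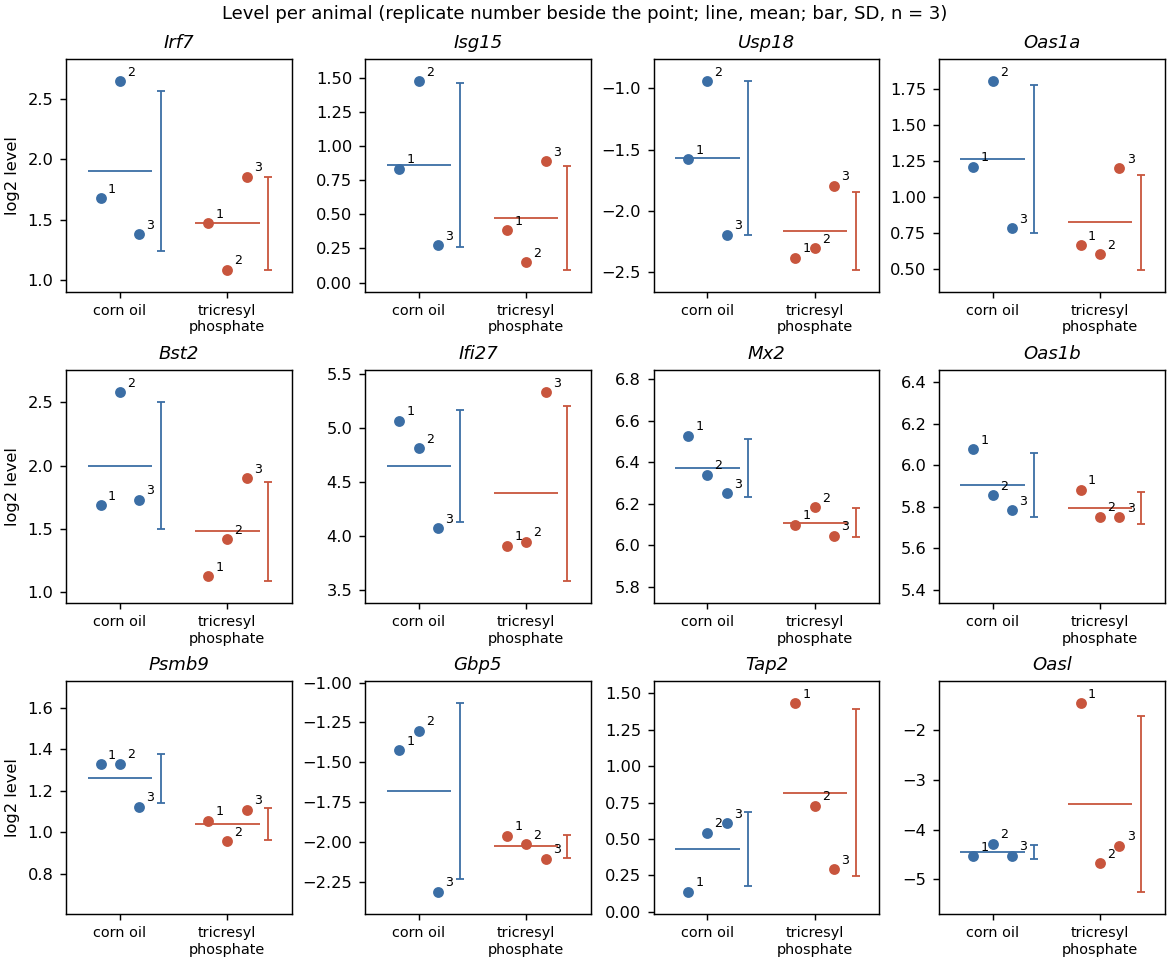
Level of 12 genes in each animal, as log2 processed signal minus the 75th percentile of the array (vertical axis, scaled for each gene), by group (horizontal axis); points are animals with their replicate number, lines group means and bars SD of 3 animals. Corn oil animal 2 is the highest point for Irf7, Isg15, Usp18, Oas1a and Bst2, and tricresyl phosphate animal 1 stands alone for Oasl.

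Among the interferon gamma driven genes, the immunoproteasome subunits were lower by the means and the peptide transporter was not. Psmb9, a catalytic subunit that the proteasome takes up under interferon gamma, had levels of 1.33, 1.33 and 1.12 with corn oil and 1.05, 0.96 and 1.11 with treatment. The groups did not overlap, with corn oil animal 3 only just above tricresyl phosphate animal 3. The means were 1.26 ± 0.12 (SD, n = 3) and 1.04 ± 0.08 (SD, n = 3), and the difference was -0.22 ± 0.10 (SE), with a limma p of 0.068 before and 0.811 after adjustment. Psmb8, another catalytic subunit of the immunoproteasome, differed by -0.21 (interval -0.54 to 0.11).

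Tap1 and Tap2 encode the subunits of the transporter that moves peptides to class I molecules. Tap2 levels, chosen after they were seen, were 0.14, 0.54 and 0.61 with corn oil and 1.43, 0.73 and 0.29 with treatment. Tricresyl phosphate animal 1 was the highest and corn oil animal 1 the lowest, and a second Tap2 probe was also highest in tricresyl phosphate animal 1. The difference was 0.39 ± 0.30 (SE), and it was 0.08 without tricresyl phosphate animal 1. Tap1 differed by 0.01 (interval -0.33 to 0.35).

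Guanylate-binding proteins attack the vacuoles of intracellular microbes. Gbp5 levels, chosen after they were seen, were -1.42, -1.30 and -2.31 with corn oil and -1.96, -2.01 and -2.11 with treatment. The treated animals lay close together, between 2 control animals above them and corn oil animal 3 below. Gbp5 differed by -0.35 (interval -1.01 to 0.31), and Gbp2 by -0.19 (interval -0.63 to 0.25). Irf1, the first transcription factor that interferon gamma switches on, differed by 0.01 (interval -0.35 to 0.36), and Irf8, a factor of myeloid cells, by 0.09 (interval -0.44 to 0.61). Cxcl9 and Cxcl10, chemokines that draw T cells through CXCR3, differed by -0.07 (interval -0.85 to 0.72) and 0.01 (interval -0.79 to 0.81). Cxcl10 was highest in corn oil animal 2, at 0.32, with the other 5 animals between -0.90 and -0.32.

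The 36 genes varied more between animals of 1 group than most genes did. Their median SD within groups was 0.30 on the log2 scale, against 0.17 over all genes tested, and 30 of 36 lay above the median of all genes. Their median range over the 6 animals was 1.72-fold, against 1.38-fold over all genes. This spread was shared. The highest level was in corn oil animal 2 for 24 of the 36 genes (66.7%), where 16.2% of all genes were highest in that animal. For 18 of 26 type I driven genes and 6 of 10 interferon gamma driven genes corn oil animal 2 was the highest. Tricresyl phosphate animals 1 and 3 were highest for 5 genes each, against 12.5% and 14.1% of all genes. Corn oil animal 1 was highest for 2 genes, against 26.4% of all genes, and corn oil animal 3 and tricresyl phosphate animal 2 for 0, against 17.5% and 13.4%. The lowest level was in tricresyl phosphate animal 2 for 13 genes, against 17.4% of all genes, and in corn oil animal 2 for 0, against 15.5%. It was in tricresyl phosphate animal 1 for 10 genes and in animal 3 for 3, against 10.5% and 28.2%, and in corn oil animals 1 and 3 for 2 and 8, against 15.4% and 13.1%. Of 20 genes with several kept probes, 15 had every probe highest in the same animal, and 4, Mx1, Ifit2, Parp14 and Stat2, had probes whose group differences were of opposite sign.

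**Figure D4:**
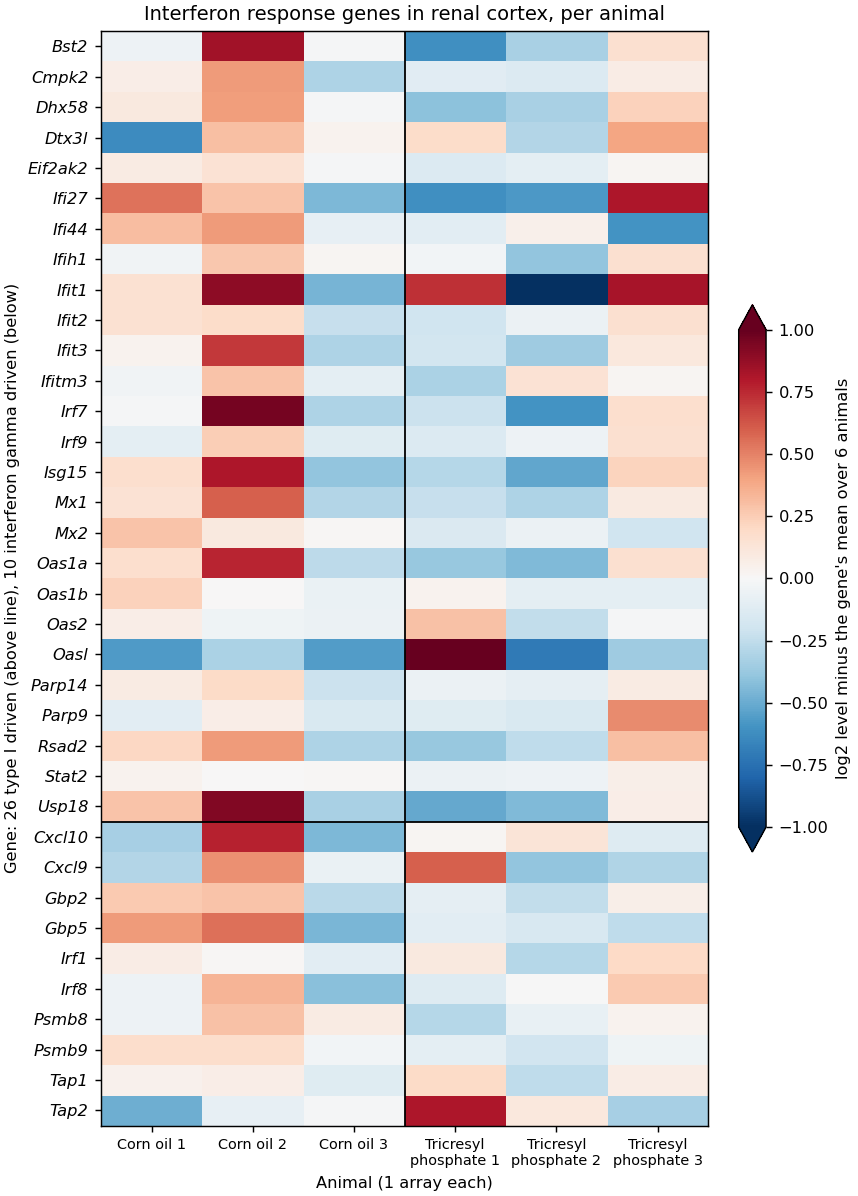
Level of each of 36 genes (vertical axis, 26 type I driven above the line and 10 interferon gamma driven below) in each of 6 animals (horizontal axis), as log2 level minus the mean of the gene over the 6 animals; red is higher and blue lower, and values past the colour bar take its end colour. Corn oil animal 2 is the highest for 24 of the 36 genes, and tricresyl phosphate animal 2 is the lowest for 13.

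Within the corn oil group, animal 2 was above animal 3 for 25 of 26 type I driven genes, with a median gap of 0.42, where 48.2% of all genes had a gap above 0. It was above animal 1 for 21 of the 26, with a median gap of 0.31, where 44.1% of all genes did. On the linear scale the gap to animal 3 was 2.41-fold for Irf7, 2.38-fold for Usp18, 2.30-fold for Isg15 and 2.04-fold for Oas1a. Within the treated group, animal 3 was above animal 2 for 22 of 26 type I driven genes, with a median gap of 0.43, and above animal 1 for 21, with a median gap of 0.29. Of all genes, 44.6% and 40.7% had such gaps above 0. The pairs were picked with the levels in view, so these counts are a description with no test. The interferon gamma driven genes had the gap between corn oil animals 2 and 3 in 9 of 10, with a median of 0.37. Between tricresyl phosphate animals 3 and 1 they had it in 5 of 10, with a median of -0.03. Of the 19 measured genes with the core in their promoter window, 14 were highest in corn oil animal 2, against 16.2% of all genes. Of the 10 with a window but no core, 5 were. The 7 genes without a window are in neither count, and whether the core goes with this pattern was not tested.

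Most markers of hepatocytes were high in corn oil animal 2 and tricresyl phosphate animal 3. Of 7 measured, 6 were highest in corn oil animal 2. Apob, the gene of apolipoprotein B, was highest in tricresyl phosphate animal 3, at 0.10, and stood at -1.86 in corn oil animal 2, within the range of -1.96 to -1.02 of the other 4. The 7 measured markers averaged 1.25 above their own means in corn oil animal 2 and 1.22 above in tricresyl phosphate animal 3, and the other 4 animals lay between -1.33 and -0.14. Albumin (Alb) had a level of 2.62 in corn oil animal 2 and 2.21 in tricresyl phosphate animal 3, against -2.47 to -0.11 in the other 4. The type I driven genes averaged 0.38 and 0.13 above their means in these animals, and 0.06, -0.19, -0.06 and -0.33 in corn oil animals 1 and 3 and tricresyl phosphate animals 1 and 2. The interferon gamma driven genes averaged 0.29 from their means in corn oil animal 2 and -0.04 in tricresyl phosphate animal 3. They averaged between -0.19 and 0.10 in the other 4. The part of the hepatocyte markers in the interferon values was not tested. Without both animals together, a comparison chosen after seeing the data, the type I median was -0.14 with 22 of 26 lower. The 3 tested markers of plasmacytoid dendritic cells averaged 0.31 above their means in corn oil animal 2 and 0.06 in tricresyl phosphate animal 3. They averaged -0.15 to -0.02 in the other 4. One of the 3 is the member Irf7, at 2.65 in corn oil animal 2, so this mean is not apart from the type I driven genes. Of the markers that are no members, Tcf4 was highest in corn oil animal 2, at 1.19, and Il3ra was lowest there, at 0.58. The 10 macrophage and dendritic cell markers averaged 0.01 above their means in corn oil animal 2, 0.04 in tricresyl phosphate animal 3 and -0.27 in tricresyl phosphate animal 2, where their median was -0.06. That mean rested on Itgam, the gene of a myeloid integrin, which was well above background on 3 of 6 arrays and stood at -8.08 there, against -6.36 to -4.11 in the other 5 animals. The part of the immune cell markers in the interferon values was not tested. The 11 T and NK cell markers averaged 0.26 in corn oil animal 1 and between -0.11 and 0.00 in the other 5.

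**Figure D5:**
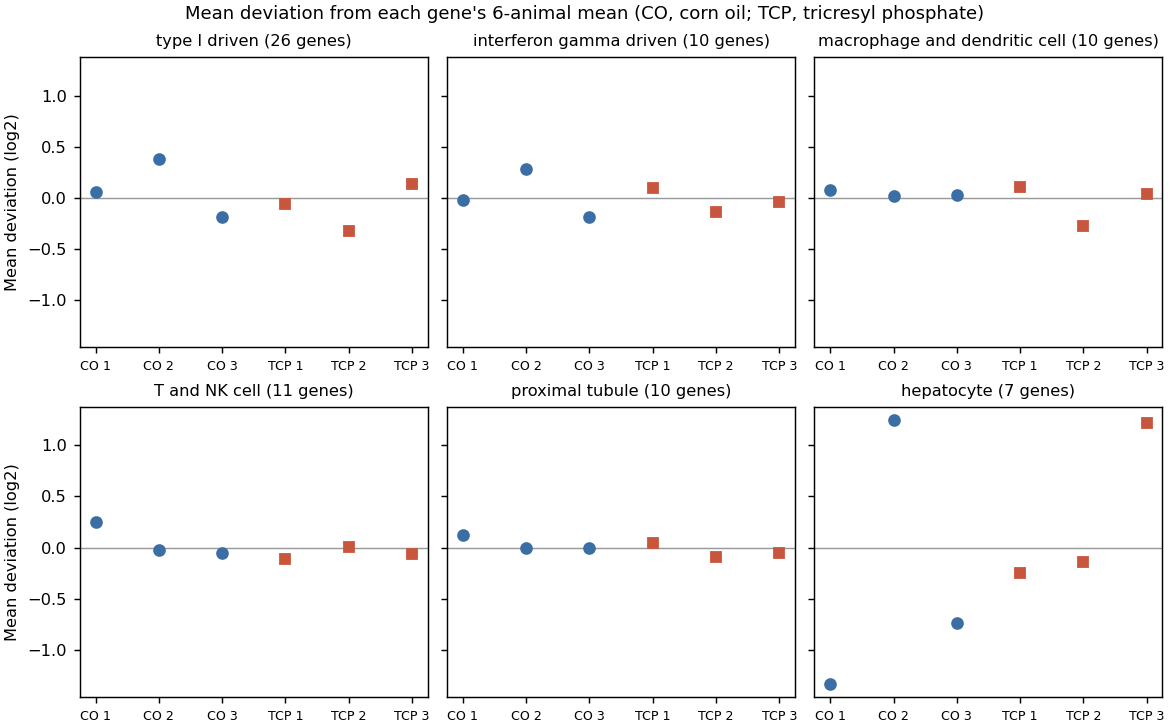
Mean deviation of each gene list from the 6-animal means of its genes, on the log2 scale (vertical axis), in each animal (horizontal axis; circles corn oil, squares tricresyl phosphate). The 7 hepatocyte markers are highest in corn oil 2, at 1.25, and tricresyl phosphate 3, at 1.22. In these animals the 26 type I driven genes averaged 0.38 and 0.13, and the 10 interferon gamma driven genes 0.29 and -0.04.

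The rest of the pathway was read from 84 further genes in lists of its parts, 59 of which could be tested. Their means were lower with treatment for 41 (69.5%, against 59.2% of all genes) and higher for 18, with a median of -0.06 that was -0.02 under quantile normalization and -0.03 under normexp, and 0 passed the adjusted threshold of the limma fit. The groups did not overlap for 9 genes in the lower direction, against 7.94% of all genes, and for 2 in the higher, against 3.85%. At an unadjusted limma p under 0.05, 2 were lower, Tlr9 and Epsti1, against 3.86% of all genes, and 0 higher, against 1.63%. The interferons themselves could not be followed. Ifnb1, the gene of interferon beta, was well above background on 1 array, Ifng, that of interferon gamma, and Ifnk on 0, and the other 4 ligand genes listed had no probe named here.

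Of the receptors, Ifnar1 of the type I receptor differed by 0.00 (interval -0.24 to 0.24), and Ifnar2 had no probe named here. Ifngr1 and Ifngr2 of the interferon gamma receptor differed by 0.16 (interval -0.26 to 0.59) and -0.09 (interval -0.32 to 0.15). The receptor kinases Jak1 and Tyk2 differed by 0.23 (interval -0.05 to 0.51) and 0.17 (interval -0.07 to 0.40). Irf3, which switches on interferon genes after sensing, differed by 0.10 (interval -0.12 to 0.32). The 8 tested receptors and kinases varied less within groups than the 36 response genes, with a median SD of 0.10. Of these, 0 of 8 were highest in corn oil animal 2, against 16.2% of all genes, and with 8 genes 0 is near that share. In the lists of sensing, feedback inhibitors and class I presentation, 1 of 11, 3 of 10 and 2 of 8 were highest in that animal. Of the 22 tested genes in the list of other interferon-induced genes, 9 were highest in that animal (40.9%).

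Tlr9, the endosomal sensor of unmethylated DNA, had levels of -4.15, -4.08 and -3.72 with corn oil and -4.41, -4.74 and -4.41 with treatment. The groups did not overlap, and the difference was -0.53 ± 0.16 (SE), with a limma p of 0.015 before and 0.811 after adjustment. Tlr3, the endosomal sensor of double-stranded RNA, differed by -0.50 (interval -1.12 to 0.13). Epsti1, an interferon-induced gene, had levels of -3.20, -3.06 and -3.32 with corn oil and -3.66, -3.81 and -3.39 with treatment. It differed by -0.42 ± 0.14 (SE), again without overlap, with a limma p of 0.021 before and 0.811 after adjustment. The others with the smallest p values were Irf2, a repressor of interferon targets, at -0.22 (interval -0.45 to 0.02), and Trafd1, a feedback inhibitor of sensing, at 0.23 (interval -0.03 to 0.50). Rtp4, which helps receptors reach the cell surface, B2m and Nmi, an interferon-induced gene, differed by -0.49 (interval -1.12 to 0.13), -0.17 (interval -0.39 to 0.05) and -0.18 (interval -0.41 to 0.06). B2m encodes the light chain of class I molecules.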

How the data were processed

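Renal cortex RNA of 6 rats, 3 a group and each a separate animal per the labels, was read on 1-colour arrays. Spots were quantified by the authors in Agilent Feature Extraction, given as 10.7 in the submitters' processing notes and as 10.7.1.1 in the headers. The deposited intensity values are linear, per the file headers: a processed signal corrected for background, and the median brightness of spot and background. Other deposited columns are flags set by the same software. The authors' value table holds an intensity per probe, which equals the processed signal divided by 1.001 to 1.0022 times the array's 75th percentile, with column medians of 0.109 to 0.115. It is therefore linear and not centred, and which software made it was not stated.

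Levels are log2 processed signal minus the array's 75th percentile over 61537 non-control probes, with 1439 control spots left out and 4 to 22 outlier spots per array set missing. Probes well above background on at least 3 of 6 arrays were kept (43099, with 18438 removed), and a gene is its kept probe with the highest mean level. The filter can favour genes detected in 1 group. Names came from the accession matched to RefSeq GRCr8, which gave 1 symbol for 28206 probes, several for 0 and none for 33331. The array design was annotated on another build, so gene coordinates are given for promoters only. The comparison used limma 3.58.1 (lmFit, eBayes; R 4.3.3) and two-sided tests with a threshold of 0.05 after Benjamini-Hochberg adjustment over 31637 genes, transcripts or unnamed probes, called genes here (12432 with a symbol), and the procedure was tested on simulated data. The number of arrays limits the precision. Intervals are 95% with 6.13 moderated degrees of freedom.

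The members, lists and rules were chosen with earlier results of these data known. All measured members were named. Values per animal were given for members whose groups do not overlap, for those with an unadjusted p under 0.05 and for the 6 with the widest range over animals. Of the pathway lists, 8 genes were to be named whatever their values, with the 8 smallest p values of the rest, and 1 of the former is not reported here. Alternatives were quantile normalization, normexp with offset 50 and quantile normalization, the authors' values, other filters and the mean of probes. Others were a trended robust variance, outlier spots kept, slide and replicate blocks, and each animal left out. Corn oil animal 1 was alone on its slide, so the slide block is the fit without that animal. Normexp used the median spot signal.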

Additional observations from a re-analysis of the deposited data

How the results depend on the processing

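No member was called under any of 17 alternatives, where the lowest adjusted limma p was 0.693, and 19 of 36 members kept their sign in all of them. The slide block among these is the same fit as leaving out corn oil animal 1, which was alone on its slide. Over the whole array 2 genes were called under normexp and quantile normalization, 2 with a trended robust variance, and 0 to 1 with 1 animal left out. The type I median lay between -0.32 and -0.06 with 1 animal left out, at -0.16 without corn oil animal 1, and at -0.12 under normexp. That of the interferon gamma driven genes lay between -0.17 and 0.03 with 1 animal left out, and at -0.13 without corn oil animal 1. That of the other pathway genes lay between -0.11 and -0.05 with 1 animal left out, at -0.02 under quantile normalization and at -0.03 under normexp. The labels do not say whether the replicate numbers pair the animals. Deviations of same-numbered animals had an r of 0.09, -0.05 and -0.04, which cannot settle it with 3 animals a group. With the replicate number as a block 0 genes were called and the type I median was -0.20. With the longer core, 48.4% of member windows held a match. Signs turned for small differences. Under quantile normalization they were 0.00057 for Oas1b, 0.0052 for Stat2, 0.0015 for Parp14 and -0.0097 for Tap1, and under normexp 0.0026 for Oas1b, 0.013 for Stat2, -0.0037 for Tap1 and -0.028 for Cxcl10. With the mean of probes they were 0.00029 for Stat2 and 0.030 for Parp14, and without corn oil animal 1 -0.074 for Dtx3l and -0.15 for Cxcl10. Without corn oil animal 2 and tricresyl phosphate animal 3 together, chosen after seeing the data, they were 0.015 for Irf9, -0.0045 for Parp9, -0.079 for Irf1 and 0.28 for Cxcl9. With 1 animal left out the ranges were -0.074 to 0.39 for Dtx3l, -0.21 to 0.40 for Cxcl10, -0.20 to 0.018 for Ifit2, -0.10 to 0.10 for Irf9, -0.20 to 0.028 for Ifitm3 and -0.16 to 0.042 for Parp14. They were -0.31 to 0.061 for Cmpk2, -0.38 to 0.15 for Cxcl9, -0.088 to 0.15 for Irf1, -0.10 to 0.28 for Irf8 and -0.084 to 0.14 for Tap1. They were -0.054 to 1.56 for Oasl, -0.12 to 0.15 for Oas2, -0.89 to 0.58 for Ifit1 and -0.071 to 0.24 for Parp9. Apart from the animals left out, the cause of these changes was not tested. Signal over background limits Ifit1 most, and 3 animals a group limit all differences.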
